A study of Arabidopsis thaliana with 12 samples.

Results

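The genes described here were silent in the siliques of Arabidopsis thaliana wild type (Col-0) and expressed in lhp1-6, a mutant of LIKE HETEROCHROMATIN PROTEIN 1. They were chosen by level alone, with a mean under 1 TPM (transcript abundance scaled to gene length and to the library total) in Col-0 fruit and in Col-0 seed. They also had a mean of at least 2 TPM in lhp1-6 fruit or in lhp1-6 seed. The rule found 74 genes among 26713 listed nuclear genes, out of 26925 listed in all. They made up 1.07% of the 6938 genes that were silent in Col-0, of which 1864 stood at 0 in all 12 libraries. The mirrored rule, silent in lhp1-6 and at 2 TPM or more in Col-0, found 129 genes, 1.79% of the 7199 genes silent in lhp1-6. Because these TPM values chose the genes, differences between the genotypes are given below as a description with no test.

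Siliques were dissected under a microscope into seeds and the fruit that remained, and total RNA of each was sequenced in bulk, with 3 libraries in each of 4 groups. The groups were Col-0 fruit, Col-0 seed, lhp1-6 fruit and lhp1-6 seed, with no transgene or further allele named in the labels. All plants were raised at 22 °C, moved at bolting to 16 °C days with 14 °C nights, and sampled 14 to 15 days after pollination, when cotyledons were bent. Each replicate pooled 3 to 5 siliques, and the labels do not say whether different replicates came from different plants, so the spread between libraries may be partly technical. The title of the series concerns adaptation to the maternal climate by way of hormone transport.

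LHP1 carries a chromodomain that binds histone H3 trimethylated at lysine 27, the mark that Polycomb repressive complex 2 places on genes kept off in a given tissue. In Arabidopsis leaves and seedlings, loss of LHP1 is known to release a part of these genes while many others stay off, and lhp1 plants are known for early flowering and curled leaves. No chromatin mark was measured in the libraries used here, so whether any of the 74 genes carries it was not tested. In bulk tissue, fewer expressing cells and less RNA per cell cannot be told apart.

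LHP1 itself (AT5G17690) ranged from 15.3 to 18.0 TPM in the Col-0 fruit libraries and from 20.8 to 23.7 TPM in those of Col-0 seed. Both mutant tissues were low, with 0.699 to 0.858 TPM (fruit) and 0.310 to 0.382 TPM (seed). The listed values summed to between 977751 and 986706 TPM per library. The 8 green fruit markers summed to between 15050 and 23295 TPM in the fruit libraries and between 9737 and 14187 TPM in the seed libraries, a sum carried by CAB1 and RBCS1A. The fruit identity genes in that list were nearly absent from seed, with Col-0 means of 245 TPM (fruit) against 0.0564 TPM (seed) for FUL and 19.8 TPM against 0.0598 TPM for IND. The 10 seed storage protein and oleosin genes summed to 3077, 484 and 312 TPM in Col-0 fruit and to 10572, 6951 and 8135 TPM in lhp1-6 fruit, so these seed markers were higher in every lhp1-6 fruit library. In seed the same genes summed to 94859, 39833 and 110703 TPM in lhp1-6 and to 13227, 14201 and 7771 TPM in Col-0. Their fruit sums therefore do not compare the amount of seed material between the genotypes. The part of these genes in the levels of the members in fruit was not tested. From genes abundant in seed, the seed share of the fruit libraries was estimated at 23.3%, 3.65% and 5.56% in Col-0 and at 8.32%, 10.9% and 9.12% in lhp1-6.

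Of the 74 genes, 43 reached 2 TPM in lhp1-6 fruit alone, 29 in lhp1-6 seed alone and 2 in both. Most levels were low, as 23 genes had a group mean of 5 TPM or more and 5 had one of 10 TPM or more. The genes sat on all 5 chromosomes, 32.4% of them on chromosome 1, where 26.1% of all listed nuclear genes lie. Their median coding length was 818 bases, against 825 bases for the other genes silent in Col-0 and 1060 bases for all listed nuclear genes. A single coding exon was annotated for 39.2% of them, for 36.2% of the other silent genes and for 23.2% of all. Genes are not replicates, and these shares are descriptions.

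**Figure D1:**
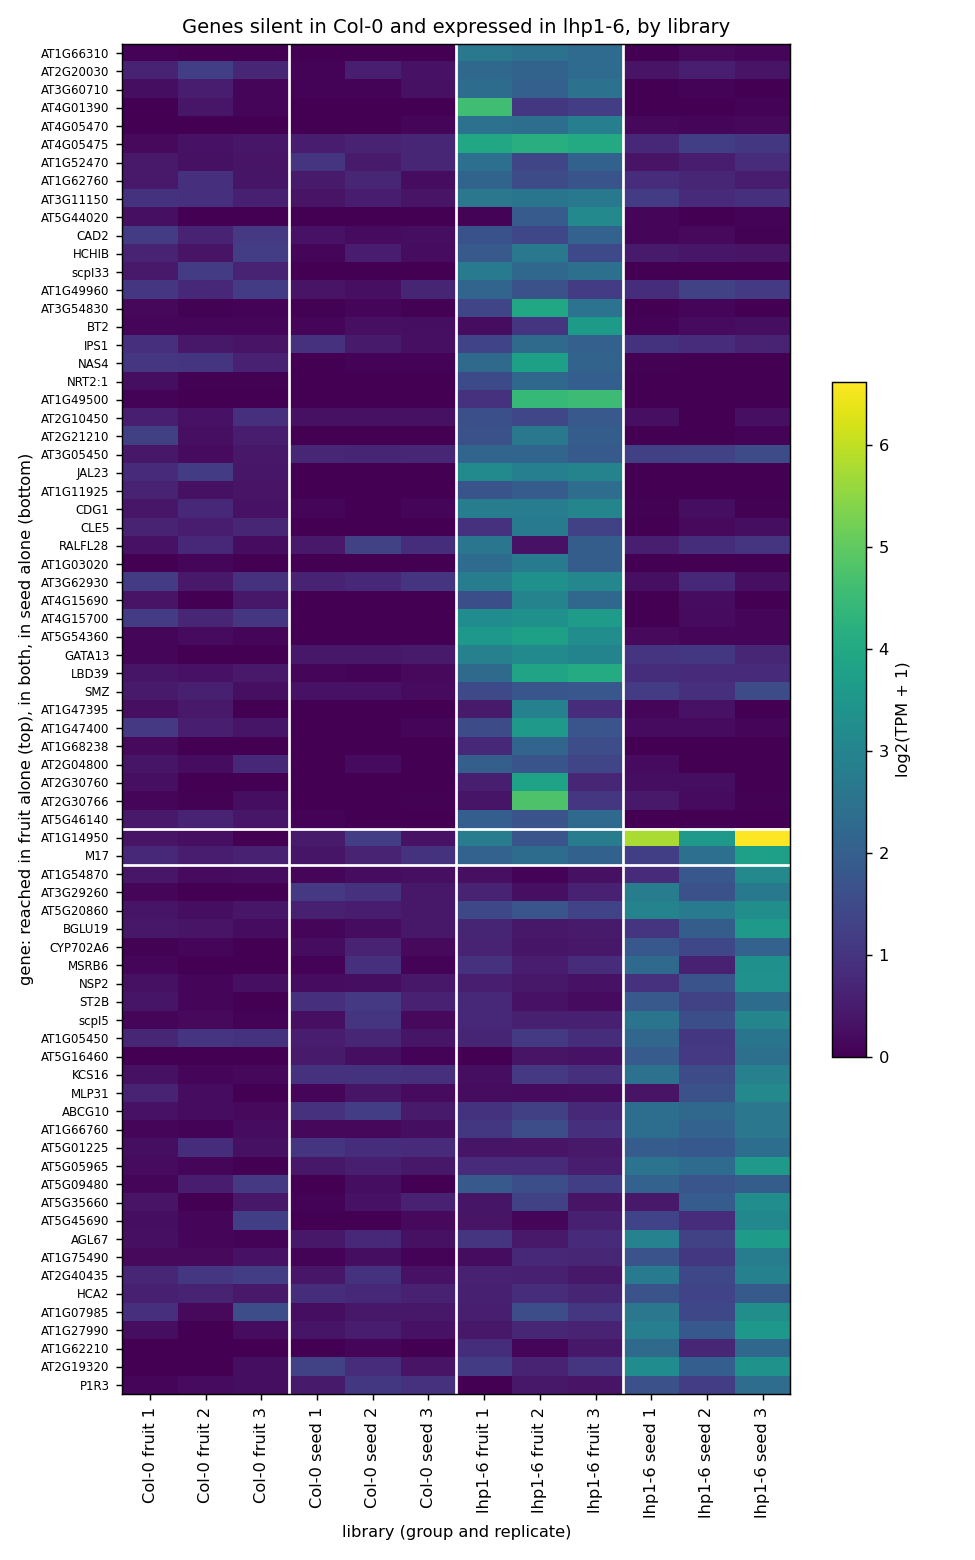
Level of each of the 74 genes (rows) in each of the 12 libraries (columns), as log2(TPM + 1); white lines part the groups and the genes reached in fruit alone, in both and in seed alone. The 43 genes of the upper block are lit in lhp1-6 fruit, the 29 of the lower block in lhp1-6 seed, and most of the latter are brightest in lhp1-6 seed replicate 3.

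By annotated role, some groups lay mainly in a single tissue and others were spread over both. Among all 74 genes, 43 were reached in fruit alone, 29 in seed alone and 2 in both. The 6 genes for F-box, RNI-like, RING or TRAF proteins, the 4 genes of the thioredoxin superfamily and the 4 genes for signal peptides or kinases were all reached in fruit alone. Genes for nutrient uptake, transport and their regulation numbered 8, of which 6 were reached in fruit alone. The 6 genes for lipid-related and late embryogenesis proteins were reached in seed alone (4) or in both tissues (2). Transcription factors (4 in fruit, 4 in seed), enzymes (7 and 9), other annotated proteins (5 and 5) and uncharacterised genes (7 and 5) were spread over both. The grouping was made after the members were known and carries no test.

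Members lay next to another member in 4 places, 8 genes in all. Upstream sequences are shown for the neighbours that RefSeq places in the same named family, because the sequences of each pair share long runs. AT4G05470 and AT4G05475, both annotated as RNI-like superfamily proteins, lie in the same direction 610 bases apart, and AT4G15690 and AT4G15700, both thioredoxin superfamily proteins, lie 2396 bases apart. The sequences are the 250 bases before each annotated gene start, read 5′ to 3′ on the gene's strand from RefSeq's TAIR10.1. Capitals mark runs of at least 12 bases that also occur in the neighbour's 250 bases.
AT4G05475 (chr4:2767958-2768207, minus strand): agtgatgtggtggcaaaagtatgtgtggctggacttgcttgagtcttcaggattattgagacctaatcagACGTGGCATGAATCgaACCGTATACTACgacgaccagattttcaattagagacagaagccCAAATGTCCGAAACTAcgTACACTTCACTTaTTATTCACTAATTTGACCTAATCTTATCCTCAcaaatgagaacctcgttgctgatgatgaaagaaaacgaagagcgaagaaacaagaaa
AT4G05470 (chr4:2765352-2765601, minus strand): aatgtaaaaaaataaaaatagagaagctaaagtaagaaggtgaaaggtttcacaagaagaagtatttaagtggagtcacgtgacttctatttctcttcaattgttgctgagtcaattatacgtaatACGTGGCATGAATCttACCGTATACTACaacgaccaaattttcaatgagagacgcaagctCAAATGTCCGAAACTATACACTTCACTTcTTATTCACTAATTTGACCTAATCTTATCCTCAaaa
AT4G15700 (chr4:8937108-8937357, plus strand): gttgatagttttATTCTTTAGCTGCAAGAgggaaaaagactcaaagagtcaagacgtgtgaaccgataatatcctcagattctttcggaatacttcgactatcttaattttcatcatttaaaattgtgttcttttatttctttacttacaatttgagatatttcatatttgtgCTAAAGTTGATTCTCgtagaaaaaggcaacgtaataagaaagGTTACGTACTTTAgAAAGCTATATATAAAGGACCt
AT4G15690 (chr4:8934046-8934295, plus strand): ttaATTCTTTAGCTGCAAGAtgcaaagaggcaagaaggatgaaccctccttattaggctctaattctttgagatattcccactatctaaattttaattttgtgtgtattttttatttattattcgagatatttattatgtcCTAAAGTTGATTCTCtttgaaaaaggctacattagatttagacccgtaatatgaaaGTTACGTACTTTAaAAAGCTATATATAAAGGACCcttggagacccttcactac
Shared runs covered 86 of the 250 bases in the RNI-like pair, the longest of 32 bases, and 65 bases in the thioredoxin superfamily pair, the longest of 20 bases. The coding sequences were 87.5% identical in the RNI-like pair and 91.3% in the thioredoxin superfamily pair. Reads from stretches that the copies have in common could have been split or shared between them. The level of each member of a pair is therefore uncertain, to an unknown degree.

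Another set of sequences is shown for the genes reached in seed, because the G-box (CACGTG), a core that bZIP and bHLH factors of seed maturation and light signalling bind, stood in more of their upstream regions than in those of the fruit genes. Within 250 bases before the start, it was present in 7 of 31 genes reached in seed (22.6%) and in 2 of 43 reached in fruit alone (4.65%). The share was 3.74% among the other genes silent in Col-0 and 6.58% among all 26715 listed genes with an annotated start. The windows hold the motif in capitals with 10 bases on either side, on the gene's strand. Those of AT5G05965 nearest the gene overlap.
AT1G27990 (chr1:9754025-9754050, minus strand): ttcactttgaCACGTGtacatcactc
AT1G27990 (chr1:9754003-9754028, minus strand): actcaaccttCACGTGgaactacgtc
AT1G54870 (chr1:20458896-20458921, plus strand): cgtttaccaaCACGTGtatcctcctc
AT1G75490 (chr1:28335322-28335347, plus strand): tataatttccCACGTGgcaattaaaa
AT2G19320 (chr2:8371160-8371185, minus strand): tctaacgtgcCACGTGttctcaaatc
AT5G05965 (chr5:1792737-1792762, minus strand): cgagaaagcaCACGTGgcggtgagaa
AT5G05965 (chr5:1792697-1792722, minus strand): gcggcagagcCACGTGgggatcacgt
AT5G05965 (chr5:1792686-1792711, minus strand): acgtggggatCACGTGaacccatctc
AT5G35660 (chr5:13853899-13853924, minus strand): acaaaatcttCACGTGccaactaaat
AT5G45690 (chr5:18536468-18536493, minus strand): ttaacatatcCACGTGtcatccacaa
Other motifs searched on both strands were in few genes of either set. The repeat GAGAGAGA was in 5 of 43 fruit genes (11.6%) and 3.23% of seed genes, against 5.04% of the other silent genes. AAACCCTA, the telobox, was in 2.33% and 6.45%, against 6.80%. CATGCATG, the RY repeat bound by B3 factors of seed maturation, was in 2.33% and 3.23%, against 0.962%. A match in such a window is not a site that was shown to be bound, and no binding was measured.

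Genes for putative ubiquitin ligase parts are described first. AT4G05475 (chr4:2765962-2767957, minus strand, 2 coding exons) had the highest mean among the genes reached in fruit alone, at 14.4, 17.1 and 15.7 TPM in the 3 lhp1-6 fruit libraries. In Col-0 fruit it stood at 0.127, 0.260 and 0.321 TPM and in lhp1-6 seed at 0.679, 1.33 and 1.12 TPM. All 3 lhp1-6 fruit libraries were thus far above every other library, with fruit means of 0.236 ± 0.0994 TPM (SD, n = 3) for Col-0 and 15.7 ± 1.33 TPM for lhp1-6. Its neighbour AT4G05470 was listed at 0 in each Col-0 fruit library and had 4.50, 4.22 and 6.07 TPM in lhp1-6 fruit.

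The other members of that role were lower. AT1G66310, an F-box protein with RNI-like and FBD-like domains, stood at 5.29, 4.55 and 3.97 TPM in lhp1-6 fruit against 0.0443, 0 and 0 TPM in Col-0 fruit. AT3G60710, an F-box protein, had 3.93 ± 0.788 TPM in lhp1-6 fruit against 0.231 ± 0.194 TPM in Col-0 fruit. F-box proteins choose the substrates of SCF ubiquitin ligases, and RING proteins such as that of AT2G20030 are ligases of another kind. AT2G20030 had 3.64 ± 0.326 TPM in lhp1-6 fruit against 0.852 ± 0.410 TPM, with its Col-0 replicate 2 at 1.32 TPM. The TRAF-like gene AT4G01390 was unlike them, at 23.1, 1.11 and 1.32 TPM, so that replicate 1 alone held 90.5% of its sum in lhp1-6 fruit.

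Among the transcription factors, AT5G54360, a C2H2-like zinc finger gene with a single coding exon (chr5:22071862-22072674, plus strand), stood at 10.6, 12.7 and 8.53 TPM in lhp1-6 fruit. Its Col-0 fruit values were 0.0724, 0.149 and 0.0918 TPM, and it was listed at 0 in every Col-0 seed library. GATA13, a zinc finger factor of the GATA family, stood at 6.42, 8.01 and 6.87 TPM in lhp1-6 fruit and at 0.0609, 0 and 0 TPM in Col-0 fruit. In seed GATA13 was also above Col-0 in every library, at 0.980, 1.11 and 0.644 TPM against 0.342, 0.339 and 0.398 TPM. LBD39, a LOB domain factor known to repress anthocyanin and nitrogen-responsive genes, was less even, at 3.89, 13.6 and 15.9 TPM in lhp1-6 fruit against 0.260 to 0.375 TPM in Col-0 fruit. SMZ (SCHLAFMUTZE), an AP2-type repressor of flowering, was near the threshold of the rule, at 1.73, 2.39 and 2.49 TPM in lhp1-6 fruit against 0.209 to 0.507 TPM in Col-0 fruit. SMZ was also above Col-0 in each lhp1-6 seed library, at 1.28, 0.904 and 1.89 TPM against 0.154 to 0.257 TPM. SMZ overlaps AT3G54980 on the opposite strand by 544 bases, and the strand setting of the counting was not given in the sources used here.

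The thioredoxin superfamily genes AT4G15690 and AT4G15700 belong to an uninterrupted run of 5 such genes in the same direction on chromosome 4. AT4G15700 stood at 8.25, 9.03 and 11.5 TPM in lhp1-6 fruit, compared with 1.23, 0.630 and 1.07 TPM in Col-0 fruit. AT4G15690 had 2.02, 6.81 and 3.65 TPM, against 0.265, 0 and 0.336 TPM. In seed of either genotype both were at or near 0, with no library above 0.162 TPM. AT4G15670, which the rule left out because its Col-0 fruit mean was 1.34 TPM, had the highest level of the run in lhp1-6 fruit, at 13.3, 11.4 and 12.2 TPM. AT4G15660 and AT4G15680 were listed at 0 in Col-0 fruit and stayed under the rule, with means of 0.697 ± 0.337 and 0.818 ± 0.504 TPM in lhp1-6 fruit. All 5 genes of the run therefore had each lhp1-6 fruit library above each Col-0 fruit library, which held for 9.49% of all nuclear genes. AT4G15690 and AT4G15700 were chosen on these libraries. For AT4G15660 and AT4G15680, at 0 in Col-0 fruit, any trace counted as above. Whether reads were shared among the genes of the run was not tested, so nothing is read from that count. The other members of the superfamily lie on other chromosomes. AT3G62930 stood at 5.92, 9.10 and 7.31 TPM in lhp1-6 fruit against 0.373 to 1.21 TPM in Col-0, and AT1G03020 at 3.99, 5.71 and 2.91 TPM against 0, 0.0898 and 0 TPM.

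**Figure D2:**
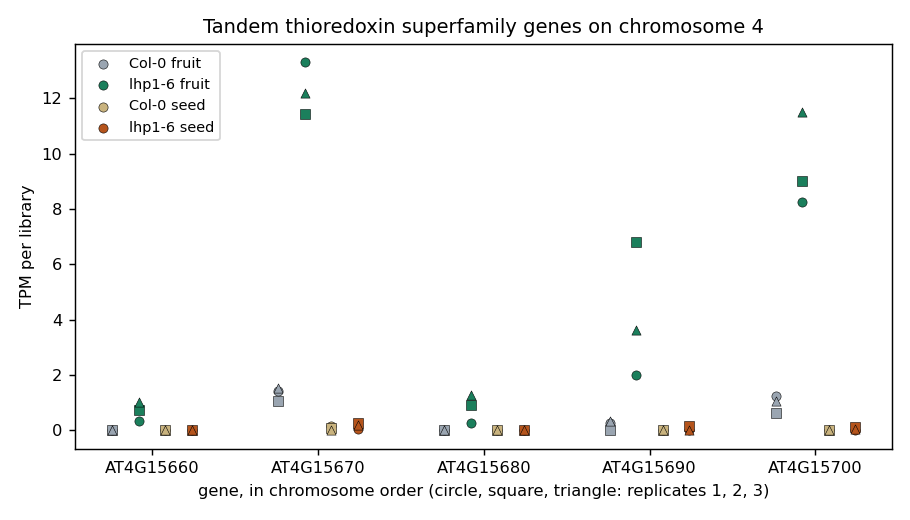
TPM of the 5 neighbouring thioredoxin superfamily genes in every library, coloured by group with the marker giving the replicate. AT4G15670, AT4G15690 and AT4G15700 stand clear of the other groups in lhp1-6 fruit, while AT4G15660 and AT4G15680 stay below 1.27 TPM.

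Genes of peptide and kinase signalling were reached in fruit alone. CDG1, a receptor-like cytoplasmic kinase known from brassinosteroid signalling, was even, at 5.81, 5.87 and 7.07 TPM in lhp1-6 fruit against 0.328, 0.707 and 0.250 TPM in Col-0 fruit. AT1G11925, of the Stig1 family of small cysteine-rich proteins, stood at 2.31, 2.82 and 4.20 TPM against 0.225 to 0.585 TPM. CLE5, which encodes a precursor of a CLE signal peptide, stood at 0.914, 5.48 and 1.48 TPM, so that replicate 2 held 69.6% of its sum. RALFL28, a precursor of a RALF peptide, had 5.01, 0.254 and 2.84 TPM against 0.256, 0.658 and 0.163 TPM in Col-0 fruit, and its groups overlapped.

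Nutrient genes named for nitrate, phosphate and iron were among the fruit members, and most were uneven between replicates. NRT2:1, the main high-affinity nitrate transporter of roots, stood at 1.82, 3.69 and 2.92 TPM in lhp1-6 fruit against 0.195, 0.0286 and 0.0354 TPM in Col-0 fruit, and was listed at 0 in all 6 seed libraries. IPS1, a non-coding RNA that sequesters the phosphate-starvation microRNA miR399, stood at 1.53, 3.86 and 3.06 TPM against 0.868, 0.334 and 0.275 TPM. BT2, a nitrate-responsive scaffold protein with BTB and TAZ domains, stood at 0.171, 0.998 and 11.1 TPM, so that replicate 3 held 90.5% of its sum. NAS4, a synthase of the metal chelator nicotianamine, had 3.85, 12.5 and 3.28 TPM against 1.06, 1.05 and 0.517 TPM. AT3G54830, a transmembrane amino acid transporter gene, stood at 1.6, 14.3 and 4.74 TPM against 0.0329 to 0.0960 TPM. AT1G49960, of the xanthine and uracil permease family, overlapped between the groups, at 3.46, 2.1 and 1.23 TPM against 1.06, 0.660 and 1.27 TPM. It also overlaps AT1G49970 on the opposite strand by 317 bases, a gene whose fruit means were 371 TPM in Col-0 and 320 TPM in lhp1-6.

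Several of the uneven genes were high in lhp1-6 fruit replicate 2. AT2G30766 stood at 0.288, 26.5 and 1.07 TPM and AT2G30760 at 0.458, 13.3 and 0.637 TPM. These genes overlap each other by 639 bases on opposite strands, so without a stated strand setting reads from that stretch cannot be told apart. The neighbours AT1G47395 and AT1G47400, which lie 1876 bases apart and are 88.9% identical over their coding bases, stood at 0.384, 6.5 and 0.782 TPM and at 1.89, 10.8 and 2.36 TPM. RefSeq annotates all 4 as uncharacterised. Another gene, AT1G49500, annotated as a TFIID subunit 1b-like protein, stood at 0.940, 20.5 and 22.3 TPM, high in replicates 2 and 3 and low in replicate 1. AT5G44020, of the HAD-type acid phosphatases, stood at 0.0454, 2.77 and 7.74 TPM, and its groups overlapped.

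A single library held over 60% of the lhp1-6 fruit sum in 11 of the 43 genes reached in fruit alone, against 0.402% of the other genes at 2 TPM or more in that group. A gene picked by a mean can enter through a single high library, so nothing is read from that difference. The highest library was replicate 1 in 10 of the 43, replicate 2 in 18 and replicate 3 in 15. Among the other genes at 2 to 10 TPM in lhp1-6 fruit, replicate 1 was highest in 33.6%, replicate 2 in 43.3% and replicate 3 in 23.1%. In 21 of the 43 every lhp1-6 fruit library stood at 2 TPM or more. Whether the uneven genes differ because of the plants, the pools or the dissection was not tested.

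**Figure D3:**
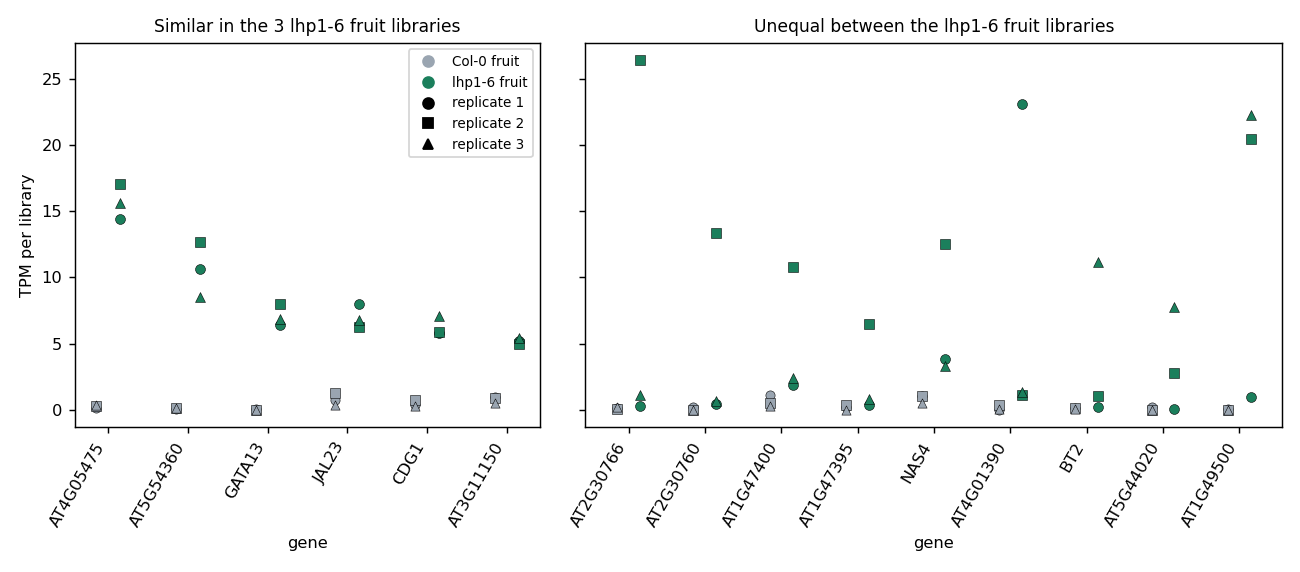
TPM in each Col-0 fruit and lhp1-6 fruit library for 6 genes with similar replicates (left) and 9 genes with unequal replicates (right), chosen after their values were seen. AT4G05475 lies between 14.4 and 17.1 TPM in lhp1-6 fruit, whereas AT2G30766 has 26.5 TPM in replicate 2 and at most 1.07 TPM in the others.

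The remaining fruit members were enzymes, other annotated proteins and uncharacterised genes with means from 2.04 to 7.01 TPM. AT3G11150, a 2-oxoglutarate and iron dependent oxygenase, was the most even, at 5.20, 4.99 and 5.43 TPM in lhp1-6 fruit against 0.497 to 0.957 TPM. JAL23, a jacalin-related lectin, had 7.99, 6.25 and 6.78 TPM against 0.763, 1.26 and 0.311 TPM, and was listed at 0 in each of the 6 seed libraries. The serine carboxypeptidase-like gene scpl33 stood at 5.51, 3.67 and 4.4 TPM, also with 0 in every seed library. HCHIB, a basic chitinase of pathogen defence, stood at 2.61, 5.30 and 1.77 TPM against 0.264 to 1.30 TPM, and it overlaps a long non-coding RNA over 1579 bases. CAD2, a homologue of cinnamyl alcohol dehydrogenase, had 2.36 ± 0.782 TPM against 0.975 ± 0.354 TPM. AT1G52470 of the alpha/beta hydrolases and AT1G62760 of the invertase and pectin methylesterase inhibitors had 3.06 ± 1.38 and 2.52 ± 0.798 TPM. AT3G05450, a cystatin-like gene, stood at 3.48, 3.47 and 2.64 TPM in lhp1-6 fruit and also above Col-0 in each seed library, at 1.39, 1.47 and 1.92 TPM against 0.618 to 0.624 TPM. AT2G21210, a SAUR-like auxin-responsive gene, and AT2G10450, of the 14-3-3 family, had means of 3.41 ± 1.65 and 2.1 ± 0.493 TPM. The uncharacterised genes AT2G04800, AT5G46140 and AT1G68238 had 2.30 ± 0.689, 2.96 ± 0.778 and 2.04 ± 1.38 TPM.

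Over the 43 genes reached in fruit alone, the median of the lhp1-6 fruit means was 4.10 TPM (2.04 to 15.7 TPM). The median difference from Col-0 fruit was 1.68 on the log2(TPM + 1) scale (0.66 to 3.76), which understates changes of low genes. In 40 of the 43 every lhp1-6 fruit library stood above every Col-0 fruit library, which held for 9.49% of all nuclear genes, but the rule used the same libraries. In lhp1-6 seed, 39 of the 43 had a mean under 1 TPM and 8 were listed at 0 in every library.

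AT1G14950 and M17 passed the rule in both tissues. M17, a late embryogenesis abundant protein gene, stood at 3.26, 4.04 and 3.18 TPM in lhp1-6 fruit and at 1.34, 4.31 and 12.3 TPM in lhp1-6 seed. AT1G14950, of the polyketide cyclase and lipid transport superfamily, had the highest level of all 74 genes, at 54.0, 10.8 and 97.4 TPM in lhp1-6 seed against 0.391, 1.29 and 0.260 TPM in Col-0 seed. In lhp1-6 fruit it stood at 6.05, 2.34 and 5.82 TPM, 8.76% of its seed mean. That ratio lies within the estimated seed share of the lhp1-6 fruit libraries, so its fruit level cannot be told apart from seed RNA.

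Genes reached in seed alone were led by AT5G20860, an invertase and pectin methylesterase inhibitor family gene, at 6.78, 5.65 and 8.60 TPM in lhp1-6 seed against 0.486, 0.425 and 0.343 TPM in Col-0 seed. It was steady between libraries, and so were 2 transporter genes. AT1G66760, a MATE efflux transporter gene, had 4.28, 3.20 and 5.22 TPM against 0.0998 to 0.176 TPM. ABCG10, an ABC transporter of the G subfamily, stood at 4.26, 3.74 and 5.16 TPM against 0.933, 1.31 and 0.391 TPM.

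Among the seed transcription factors, AGL67, a MADS-box gene, had 6.72, 1.41 and 11.3 TPM against 0.352, 0.696 and 0.234 TPM, and overlaps AT1G77960 on the opposite strand by 1174 bases. AT2G40435, a SCREAM-like bHLH-type gene, stood at 5.52, 1.73 and 6.51 TPM against 0.331, 0.947 and 0.257 TPM. AT1G75490, of the AP2-type DNA-binding superfamily, had 2.23, 1.12 and 5.92 TPM against 0.0369 to 0.183 TPM. HCA2, a Dof factor known from vascular cambium, was at 2.26, 1.5 and 2.67 TPM against 0.835, 0.694 and 0.533 TPM.

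Lipid genes reached in seed alone were KCS16, AT5G16460, AT1G05450 and MLP31. KCS16, a ketoacyl-CoA synthase that elongates very long fatty acids, stood at 4.58, 1.84 and 6.34 TPM against 0.889 to 0.959 TPM. AT5G16460, a seipin-type gene, a family that shapes oil bodies, had 2.74, 1.14 and 4.47 TPM against 0.403, 0.177 and 0.0447 TPM. AT1G05450, a lipid-transfer and seed storage albumin superfamily gene, stood at 3.58, 1.10 and 4.98 TPM against 0.297 to 0.647 TPM. MLP31, of the MLP-like family, was at 0.277, 2.13 and 7.72 TPM and overlapped Col-0 seed, which reached 0.287 TPM.

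Of the enzymes reached in seed, NSP2, a nitrile specifier protein that diverts glucosinolate breakdown, had 0.908, 2.22 and 9.23 TPM against 0.159 to 0.343 TPM. BGLU19, a beta-glucosidase, stood at 0.990, 2.90 and 10.7 TPM against 0.0863 to 0.345 TPM, and overlaps AT3G21360 on the opposite strand by 527 bases. AT1G54870, of the NAD(P)-binding Rossmann-fold superfamily, had the same order, at 0.771, 2.45 and 7.64 TPM. MSRB6, a methionine sulfoxide reductase, overlapped Col-0, at 3.76, 0.520 and 8.96 TPM against 0.0532, 0.842 and 0.0531 TPM. AT3G29260, scpl5, ST2B and CYP702A6 had means of 4.50 ± 2.09, 4.66 ± 2.55, 2.69 ± 1.31 and 2.48 ± 0.756 TPM. Among the other annotated genes, AT5G05965, a cell wall RBR3-like gene whose upstream region held 3 G-box windows, had 4.77, 4.01 and 10.7 TPM against 0.341 to 0.474 TPM. AT5G09480, a hydroxyproline-rich glycoprotein gene, stood at 3.26, 2.37 and 2.84 TPM against 0, 0.195 and 0 TPM. AT5G35660, AT5G45690 and AT5G01225 had means of 3.86 ± 4.14, 3.27 ± 3.68 and 3.22 ± 0.934 TPM. AT5G01225 overlaps AT5G01230 on the opposite strand by 601 bases, a gene whose seed means were 10.2 TPM in Col-0 and 8.38 TPM in lhp1-6. Without a stated strand setting, reads from that stretch cannot be told apart. Among uncharacterised genes AT2G19320, AT1G27990, AT1G07985, AT1G62210 and P1R3 had means of 6.90 ± 3.46, 6.42 ± 4.0, 5.15 ± 3.44, 2.74 ± 1.83 and 2.54 ± 1.5 TPM.

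Over the 29 genes reached in seed alone, the median of the lhp1-6 seed means was 4.12 TPM (2.15 to 7.01 TPM), and 10 had every lhp1-6 seed library at 2 TPM or more. In 26 of the 29 every lhp1-6 seed library stood above every Col-0 seed library, against 5.63% of all nuclear genes, again on the libraries of the rule. The median difference from Col-0 seed was 1.70 on the log2(TPM + 1) scale (0.88 to 2.48), where the median of all tested genes was -0.15. In the limma fit over all genes 1.85% were called higher in lhp1-6 seed and 5.75% higher in lhp1-6 fruit, at an adjusted p under 0.05, and 10.2% and 9.19% lower. Of the 60 members that passed the filter, 28 were called higher in seed and 38 in fruit and 0 lower in either, from which nothing is read, since the rule used that contrast. Most of these genes shared an order of the libraries, as 21 of the 29 ran from replicate 3 through replicate 1 down to replicate 2. In 5 others replicate 3 was highest and replicate 1 lowest, and in the last 3 replicate 1 was highest and replicate 2 lowest. Among the other genes at 2 TPM or more in lhp1-6 seed, replicate 3 was highest in 13.8% and replicate 2 in 57.1%. The 10 storage protein and oleosin genes had the order of those 21, summing to 94859, 39833 and 110703 TPM in lhp1-6 seed replicates 1, 2 and 3, and to 13227, 14201 and 7771 TPM in Col-0 seed. Each lhp1-6 seed library was above each Col-0 seed library. What part of the seed levels goes with this difference was not tested.

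**Figure D4:**
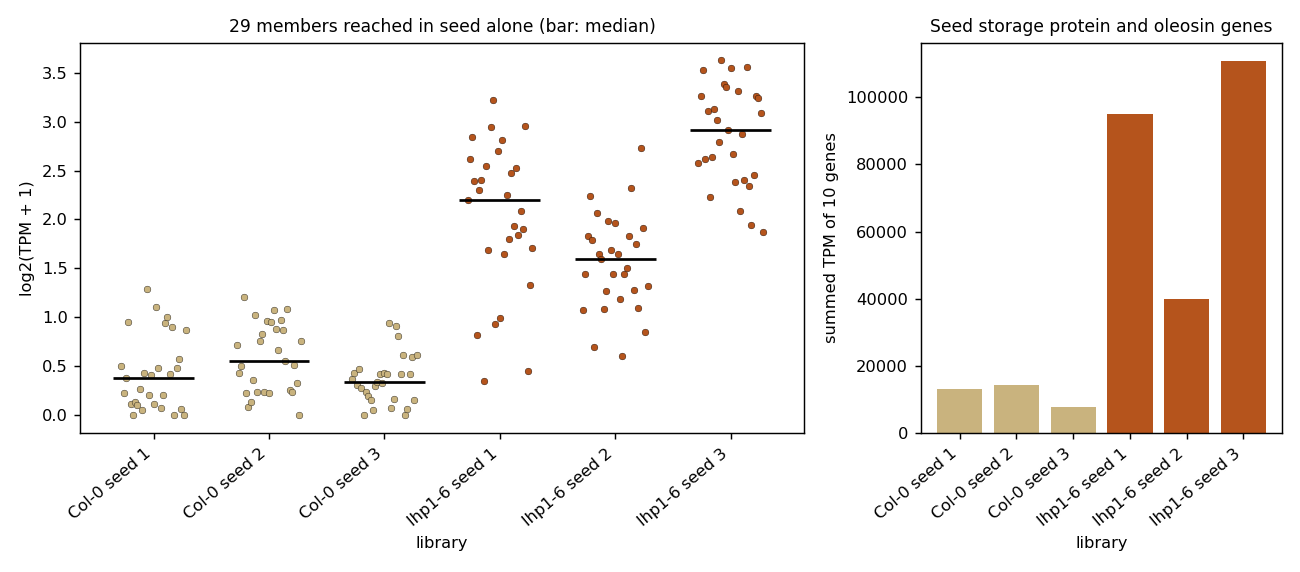
Left, log2(TPM + 1) of the 29 genes reached in seed alone in each seed library, a point for each gene and a bar at the median. Right, summed TPM of 10 seed storage protein and oleosin genes in the same libraries; in lhp1-6 seed both are lowest in replicate 2 and highest in replicate 3.

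The levels of the seed genes in lhp1-6 fruit were low. The fruit mean as a share of the seed mean had a median of 13.0% (4.33% to 70.1%), and in 12 of the 29 it was at or under the highest seed share of the lhp1-6 fruit libraries. Their presence in fruit cannot be told apart from seed RNA in those 12. AT5G09480 had the highest ratio, with 2.59, 2.01 and 1.34 TPM in lhp1-6 fruit against 0.0700, 0.431 and 1.16 TPM in Col-0 fruit.

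Seed and fruit were also set against each other within the 6 lhp1-6 libraries, by limma on log2(TPM + 1) with Benjamini-Hochberg adjustment over 19946 genes, of which 38.8% were higher in seed and 40.8% higher in fruit. Sorting the members by the tissue in which they reached 2 TPM used the same values, and 60 members passed the filter of 1 TPM in 3 libraries, mostly through the tissue in which they are high. The differences are therefore a description with no test, and nothing is read from the calls, which were higher in fruit for 33 of 35 genes reached in fruit alone and higher in seed for 21 of 23 reached in seed alone.

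Among the fruit genes, the seed minus fruit difference on the log2(TPM + 1) scale was -3.40 for AT5G54360 (SE 0.15), -3.30 for AT4G15700 (SE 0.14) and -3.04 for AT4G05475 (SE 0.15). JAL23 (-3.00, SE 0.12) and CDG1 (-2.75, SE 0.13) followed. The tissues lay closer together for SMZ (-0.46, SE 0.18), AT1G49960 (-0.55, SE 0.25) and RALFL28 (-0.81, SE 0.52). AT4G01390, in which fruit replicate 1 stood far above the others, had -2.27 with an SE of 0.85.

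Among the seed genes, the seed minus fruit difference was 1.67 for AT5G01225 (SE 0.17), 1.49 for AT5G20860 (SE 0.17) and 1.43 for ABCG10 (SE 0.17). The value for AT5G01225 is subject to its overlap with AT5G01230. CYP702A6 (1.30, SE 0.18) and AT5G05965 (2.11, SE 0.30) are further examples, and AT5G09480 (0.38, SE 0.18) and AT5G35660 (1.20, SE 0.64) were lower or had a wide error. Of the genes that passed the rule in both tissues, AT1G14950 had 2.88 (SE 0.72) and M17 had 0.29 (SE 0.54), and without lhp1-6 seed replicate 3 the M17 difference turned to -0.34 (SE 0.34).

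**Figure D5:**
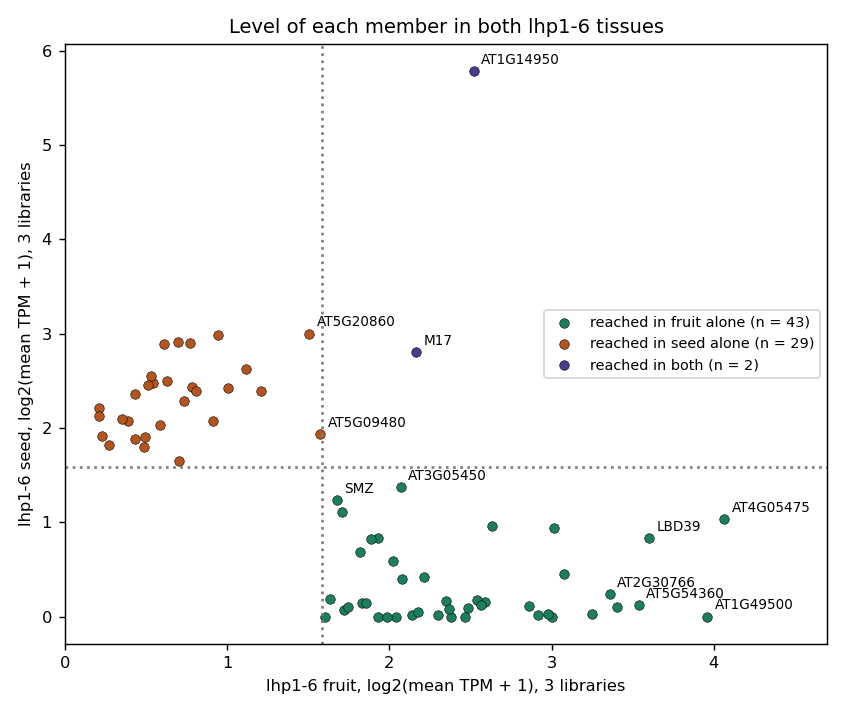
Mean level of each of the 74 genes in lhp1-6 fruit (horizontal) and lhp1-6 seed (vertical), as log2(mean TPM + 1) over 3 libraries, with dotted lines at the rule's 2 TPM. The 43 fruit genes and the 29 seed genes are each beyond a single line, and AT1G14950 and M17 are the 2 beyond both lines. These positions follow from the sorting, which used the same means.

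To see how far the choice carries over to libraries it did not use, the rule was applied to 2 replicates of each group and the left-out replicate was read. With replicate 1 left out, 29 of 51 genes chosen in fruit (56.9%) and 22 of 33 chosen in seed (66.7%) reached 2 TPM in the left-out lhp1-6 library. With replicate 2 left out it was 32 of 43 in fruit (74.4%) and 21 of 54 in seed (38.9%), and with replicate 3 it was 32 of 49 (65.3%) and 17 of 18 (94.4%). Among silent genes that were not chosen, between 0.222% and 1.68% reached 2 TPM. The left-out lhp1-6 library was above the same-numbered Col-0 library in 88.4% to 100% of the chosen genes. Among the silent genes that were not chosen, it was above in 19.1% to 36.5%. Genes at 0 in both libraries counted as not above, and 1864 genes silent in Col-0 stood at 0 in all 12 libraries. By the rule, the genes not chosen also had means under 2 TPM in the other lhp1-6 libraries. The differences between chosen and unchosen genes, at 2 TPM and against Col-0, were therefore largely set in advance. Nothing is read from either. Genes are not replicates, and the labels do not say whether replicates share plants, so all these shares are descriptions. The list chosen in seed held 18 genes with replicate 3 of every group left out and 54 with replicate 2 left out.

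Genes often examined for Polycomb control, and markers of other tissues, were looked at as lists of floral and type I MADS-box genes, meristem homeobox genes, embryo regulators, argonautes, triterpene clusters, Polycomb genes, auxin-synthesis genes and markers of pollen, tapetum, root, seed and fruit. Of their 184 genes, 51 were silent in Col-0, and none met the rule. In 49 of these the mean stayed under 1 TPM in both lhp1-6 tissues, and the other two were AGL71 at 1.67 TPM and PHE1 at 1.05 TPM, both MADS-box genes. Of all genes silent in Col-0, 1.07% met the rule, so nothing is read from the absence of members among 51 genes. A mean under 1 TPM can still go with a difference between the genotypes. AGL17 stood at 0.793, 0.806 and 1.30 TPM in lhp1-6 fruit against 0 to 0.0544 TPM in Col-0 fruit. By contrast, AGL14 was listed at 0 in every lhp1-6 library.

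Close to the thresholds, small shifts decide membership. With the Col-0 fruit mean, AT1G49960 (0.996 TPM), AT1G07985 (0.995 TPM) and AT2G40435 (0.991 TPM) were the last inside, and UMAMIT36 (1.01 TPM), AT2G16380 (1.01 TPM) and WRKY36 (1.03 TPM) the first outside. With the Col-0 seed mean, KCS16 (0.921 TPM), ABCG10 (0.878 TPM) and RALFL28 (0.875 TPM) were inside, and AT3G14981 (1.002 TPM), FAR1 (1.02 TPM) and AT1G11785 (1.02 TPM) outside. With the higher lhp1-6 mean, AT1G68238 (2.04 TPM), AT2G10450 (2.1 TPM) and HCA2 (2.15 TPM) were inside, and AT5G06800 (1.99 TPM), BAT1 (1.97 TPM) and bZIP75 (1.96 TPM) outside. In 50 of the 74 genes every Col-0 library stood under 1 TPM, so the other 24 reached 1 TPM in at least 1 Col-0 library.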

How the data were processed

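RNA of 12 libraries, from seed and fruit of Col-0 and lhp1-6 with 3 replicates per group, was sequenced as 100 bp pairs on a DNBSEQ instrument per the labels. The authors deposited 1 table of TPM (a library's transcripts scaled to gene length and total) for each library. The submitters' processing notes name cutadapt 1.9.1, STAR 2.5 and featureCounts with TAIR10. The sources used here give no strand setting, gene lengths or featureCounts version. TPM keep no sequencing depth, so no counting intervals were made, and a TPM is a share of its library's total.

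The 74 genes, the gene lists, roles and tests were chosen with earlier results of these data known. Means of TPM gave the membership. For tests, limma 3.58.1 (R 4.3.3) was fitted to log2(TPM + 1), with variances that follow mean expression, for 19946 genes that reached 1 TPM in 3 libraries or more. Benjamini-Hochberg adjustment was used, and calls were made at 0.05. Seed was compared with fruit in the 6 lhp1-6 libraries, and the genotypes over all 12. On simulated data the fit was checked beforehand. Python 3.11.15, pandas 2.3.3 and matplotlib 3.10.9 were used for the rest.

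The rule for named genes took the members with the 10 highest means in each lhp1-6 tissue, the 6 smallest adjusted p-values in each direction between tissues, members next to another member, the 3 genes nearest each threshold on either side, and LHP1. The other members are named as well, so that each is accounted for. The seed share of a fruit library was the 1st percentile of the ratio of fruit to seed TPM over genes whose TPM was 50 or more in all seed libraries of that genotype, leaving out storage genes. Deviations from the group means in fruit and seed libraries of the same number had correlations across genes of 0.311, 0.202 and 0.128 in lhp1-6. Between Col-0 and lhp1-6 libraries of a tissue, correlations ran from -0.397 to 0.421, so values of this size do not show a pairing. The labels do not say that the numbers pair the tissues. The differences and SEs between tissues given above used no pairing. Only the replicate block, fitted as an alternative, took the numbers to pair libraries. Between tissues it paired fruit and seed within lhp1-6. Between genotypes it paired Col-0 and lhp1-6 libraries within a tissue, a pairing that the labels do not give either. Gene names, positions and upstream sequences came from RefSeq's TAIR10.1, in which all 74 identifiers were found. The deposited tables hold no coordinates.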

Additional observations from a re-analysis of the deposited data

How the results depend on the processing

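The number of genes that meet the rule was 39 with a Col-0 limit of 0.5 TPM, 23 with an lhp1-6 limit of 5 TPM and 33 when every library of an lhp1-6 group had to reach 2 TPM. It was 85 after median-of-ratios rescaling (71 of the 74 shared), 100 after quantile normalisation (68 shared) and 73 after the seed share was subtracted from fruit values (68 shared). Leaving out each library gave 64 to 89 genes, the extremes without lhp1-6 seed replicates 3 and 2, and 42 of the 74 were kept whichever library was left out. Between tissues in lhp1-6, where the calls of members are a description, the replicate block left 22 members called higher in seed and 33 higher in fruit, and changed no member's call. With a filter of 5 TPM in 3 libraries only 2 and 7 were called, because few members were tested. Leaving out a library gave 19 to 22 members higher in seed and 31 to 33 in fruit, and 7244 to 7524 and 7528 to 8037 among all genes. The difference of M17 ranged from -0.34 (without lhp1-6 seed replicate 3) to 0.91 (without replicate 1) when a library was left out.

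For the genotype background in fruit, the main fit gave 1146 genes higher and 1834 lower in lhp1-6. The 6 fruit libraries alone gave 363 and 520, and subtracting the seed share gave 2289 higher. The replicate block, which here paired same-numbered Col-0 and lhp1-6 libraries, gave 674 and 990. Leaving out a fruit library gave 748 to 2830 higher and 1081 to 2900 lower, the highest values without Col-0 fruit replicate 1, whose seed share was 23.3%. In seed, against 369 higher and 2041 lower, the 6 libraries alone gave 769 and 4813 and the replicate block 162 and 626. Rescaling gave 516 lower and quantile normalisation 596 lower. Leaving out a seed library gave 132 to 407 higher and 530 to 2104 lower. The cause of these shifts was not tested. The depth of each library is unknown, so levels near 0 carry an unknown counting error.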

Other observations

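Other genes of nitrate and iron nutrition were looked at in fruit after the values of NRT2:1, BT2, LBD39 and NAS4 were seen, so the lists are not independent of those genes. Of 13 nitrate genes, 11 were tested, 6 of which were called higher and 1 lower in lhp1-6 fruit by limma, where 5.75% of all genes were called higher and 9.19% lower. NIR1, the nitrite reductase, stood at 92.3, 150 and 128 TPM in lhp1-6 fruit, with a mean of 18.9 TPM in Col-0 fruit (2.69 on the log2 scale, SE 0.23, limma adjusted p = 7.43e-05). NIA2, the main nitrate reductase, stood at 112, 118 and 119 TPM against a mean of 38.2 TPM (1.61, SE 0.17, limma adjusted p = 0.000218). LBD37 and LBD38, relatives of LBD39, were also higher, with LBD37 at 9.92, 48.2 and 73.6 TPM, the same order of replicates as LBD39. The gene called lower was BT1, a relative of BT2, at 26.8, 24.8 and 16.2 TPM against a mean of 43.0 TPM. NIA1, another nitrate reductase, was not called (-0.62, SE 0.34, limma adjusted p = 0.254). With the 6 fruit libraries alone NIR1 and NIA2 were still called, with limma adjusted p-values of 0.00968 and 0.00924, while LBD37 (0.122), NRT3.1 (0.129) and BT1 (0.115) were not, which left 4 called higher and 0 lower.

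Of 14 iron genes, 7 were tested and 1, NAS1, was called higher (3.26, SE 0.57, limma adjusted p = 0.00442, and 0.0637 with the 6 fruit libraries alone). In lhp1-6 fruit 9 of the 14 were highest in replicate 2, the library in which AT2G30766, AT1G47400 and NAS4 were highest, and which was highest in 33.8% of the other genes at 2 TPM or more and in 43.3% of those at 2 to 10 TPM. Some of the 9 were near 0, such as bHLH38 at 0.376 TPM and bHLH39 at 0.0958 TPM in that library and 0 TPM in the other two. FRO3, an iron reductase gene, stood at 5.00, 20.5 and 6.74 TPM and bHLH100, a factor of the iron-deficiency response, at 0.0552, 2.41 and 0.358 TPM. FER1, a ferritin gene that is low when iron is scarce, was lowest in that library, at 533, 213 and 532 TPM. Others did not follow, as NAS3 was also lowest there, at 22.9, 9.17 and 18.1 TPM, FRO2 stood at 0.852, 0.817 and 0.915 TPM, and IRT1, the main iron transporter of roots, was listed at 0 in every lhp1-6 fruit library. The labels do not say whether libraries share plants, and the link between these genes was not tested.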
